A study of Mus musculus with 2 samples.

Results

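Serum response factor (SRF), its coactivators and 37 genes of the contractile apparatus and of focal adhesions were compared between quiescent p27delta51 and wild type (WT) mouse embryonic fibroblasts (MEFs). The 41 genes were chosen by name, with earlier results of these data known. The shares of all genes set beside them below are therefore a yardstick and no independent test. Each of the 41 was read by the brightest of the probe sets annotated to it alone. All 41 were measured, of 18193 named genes on the array. MEFs are fibroblasts, the cells that lay down connective tissue, taken into culture from embryos. The p27delta51 cells carried the p27delta51 allele of Cdkn1b, which is known to lack the amino-terminal part through which p27 inhibits cyclin-dependent kinases, and the control cells carried wild type p27. Both cultures were grown in 10% fetal bovine serum and then kept without serum for 72 h. RNA of each genotype was hybridised to 1 Affymetrix array. How many embryos or cultures lay behind an array, and the ages and strains of the mice, are not given in the sources used here. With 1 array per genotype there is no replicate, no SD and no test, and every difference below compares these 2 arrays.

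SRF is a transcription factor that binds a DNA element called the CArG box. Myocardin and the myocardin-related transcription factors MRTF-A and MRTF-B, encoded by Myocd, Mkl1 and Mkl2, join it as coactivators. The MRTFs are held in the cytoplasm by monomeric actin and enter the nucleus when actin polymerises, so that SRF with an MRTF is known to drive genes for actin filaments, for the myosin motors that pull on them and for the focal adhesions that tie them to the matrix. In fibroblasts these genes are known for stress fibres and for the contractile myofibroblast state.

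Signals are array intensities on a linear scale. On each array 27 probe sets read bacterial transcripts that should be absent, and the brightest of them gave 14.8 in p27delta51 against 11.8 in WT, and 14.8 was used as the floor on both arrays. Differences are log2 of the p27delta51 signal minus log2 of the WT signal after signals below the floor were raised to it, and a fold against a signal at the floor is given as at least that size. The 2 probe sets of Cdkn1b gave 1.6 and 1016 in p27delta51, against 62.0 and 542 in WT. Whether either reads the part that the allele lacks is unknown here, so they do not check the genotype. The X-linked transcript Xist gave 876 in p27delta51 against 25.8 in WT, and the Y-linked Eif2s3y gave 6.9 in p27delta51 against 424.5 in WT, so that sex and genotype cannot be told apart here. Of 10 fibroblast markers, all were above the floor on both arrays, the collagen chain gene Col1a1 with 7275 in p27delta51 against 7569 in WT and the vimentin gene Vim with 11278 in p27delta51 against 9670 in WT. Others of the 10 were far apart, Thy1 and Pdgfra by more than 2-fold in opposite directions, and their values stand with the marker lists. Signals cannot be set against each other between genes, since each probe set has its own brightness.

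Most of these genes were lower in p27delta51 cells, and the largest differences were those of Pgm5, Cnn1, Lmod1, Myl9 and Tagln. The p27delta51 signals of Pgm5, Cnn1 and Lmod1 were under or near the floor. Of the 41 genes, 12 were at least 2-fold lower in p27delta51, against 5.71% of all named genes, and 0 were at least 2-fold higher, against 6.85%. At a 1.5-fold limit 22 were lower, against 11.3% of all named genes, and 2 were higher, against 14.6%. By any amount, 32 genes were lower, against 33.1% of all named genes, 8 were higher and 1 was at the floor on both arrays. The median log2 difference was -0.71, beside 0.00 for all named genes. In RNA from whole cultures, fewer cells of a type and less RNA per cell cannot be told apart.

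Many named genes are dim and cannot differ once the floor is applied, so the counts were repeated over the genes above the floor on both arrays. There 29 of 37 members were lower by any amount, against 44% of such genes. Of the 37, 10 were at least 2-fold lower, against 6.53% of such genes, and 0 were at least 2-fold higher, against 8.96%. The median difference of these 37 was -0.66, beside 0.08 for the 11202 genes above the floor on both arrays. The authors' deposited table calls each probe set changed or unchanged between the arrays. It gave a decrease or marginal decrease to 29 members, against 13.3% of all named genes, an increase or marginal increase to 3, against 17.1%, and no change to 9.

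**Figure D1:**
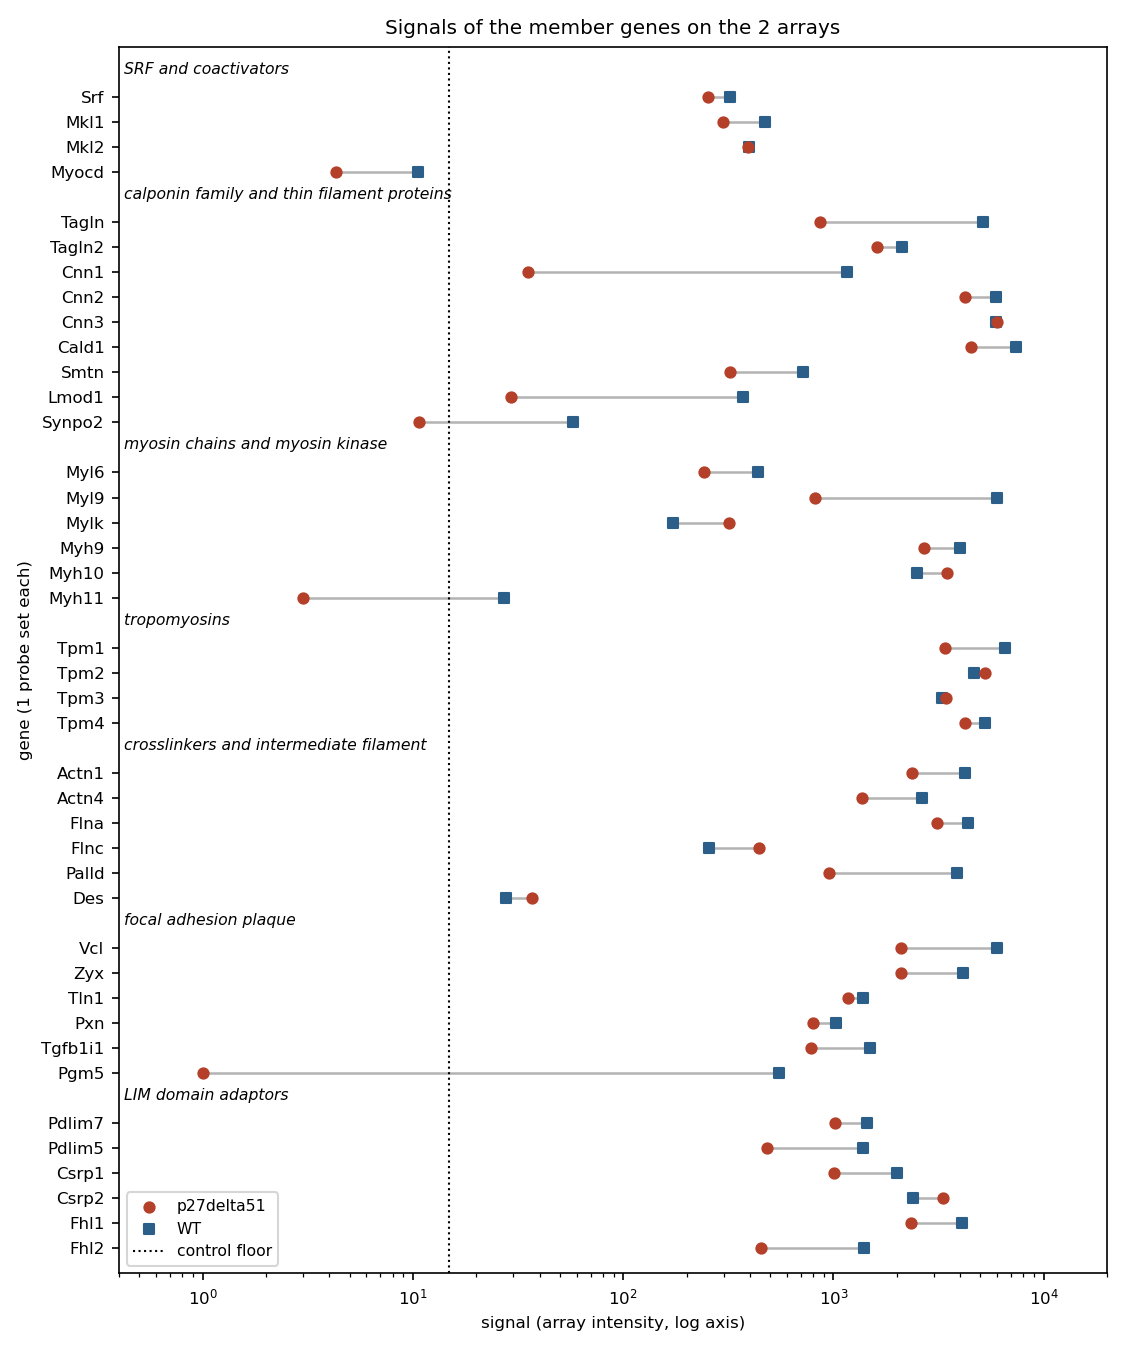
Signal of each gene on the p27delta51 array (circles) and the WT array (squares), on a log axis and grouped by role, with the floor of 14.8 as a dotted line. The widest gaps are those of Pgm5, Cnn1 and Lmod1, and the p27delta51 circle lies to the right of the WT square for few genes, Mylk among them.

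**Figure D2:**
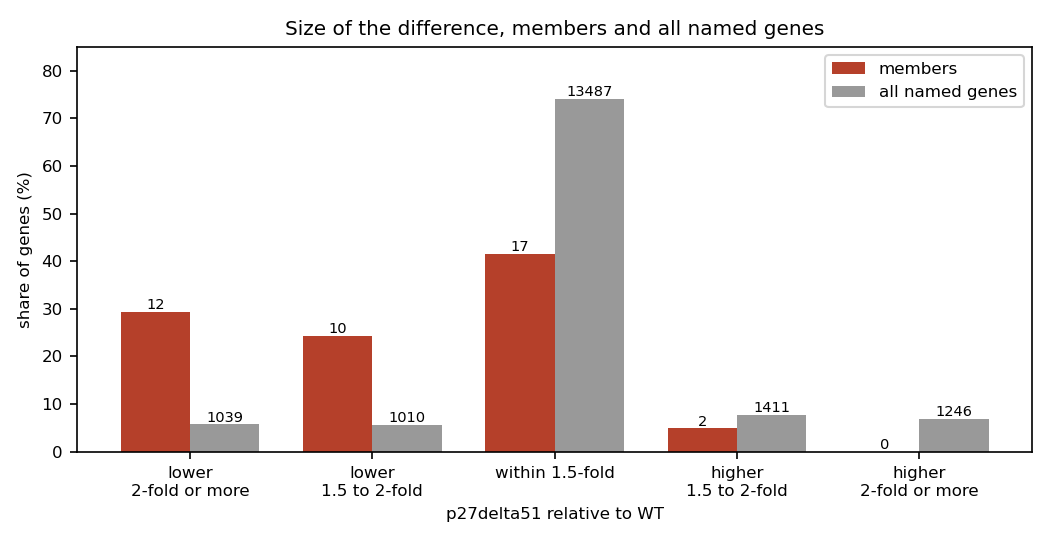
Share of genes, in percent, in each class of difference between p27delta51 and WT, for the 41 members and for all 18193 named genes, with the number of genes above each bar. The 2 classes of lower genes hold 12 and 10 members, and the class at least 2-fold higher holds 0.

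CArG boxes were looked for in RefSeq promoter windows of build GRCm38.p6, which run from 250 bases upstream of a gene's start to 50 bases past it. The motif, CC followed by 6 letters that are each A or T and then GG, was matched exactly and reads the same on both strands, so a match counts once for both. Windows were found for 35 of the 41 genes. Myocd, Tagln, Myh11, Pxn, Tgfb1i1 and Csrp2 had no window and were not searched. Of the 35, 7 genes (20.0%) held a CArG box in at least 1 window, against 1.81% of 27025 genes with a window. Over windows, the share was 16.7% of 48 for the members and 1.63% of 32851 for all genes. The list was drawn up around SRF, so a share above that of all genes may follow from the choice of genes. It is no test of control by SRF. Among members at least 2-fold lower in p27delta51, 3 of 11 held one, and among the other members 4 of 24, so that boxes were found on both sides of the 2-fold limit. A match is a run of letters, not a measured binding site, and a gene without a match has none in these windows only. Srf held 2 boxes in 1 window, which is shown whole up to the start because SRF is known to act on its own gene. The other boxes are shown with up to 25 bases on either side, the box in capitals, read 5′ to 3′ on the strand of the gene. Fhl2 has a box at each of its 2 starts.
Srf upstream window, chr17:46556163-46556412, minus strand: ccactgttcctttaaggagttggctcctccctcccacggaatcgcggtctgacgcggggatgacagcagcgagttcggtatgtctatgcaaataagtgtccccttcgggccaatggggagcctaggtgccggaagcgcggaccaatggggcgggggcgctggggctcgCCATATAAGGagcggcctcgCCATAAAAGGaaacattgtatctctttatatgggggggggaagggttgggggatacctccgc
Myl9, chr2:156775278-156775337, plus strand: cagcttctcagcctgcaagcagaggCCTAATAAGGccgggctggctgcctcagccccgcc
Vcl, chr14:20929148-20929205, plus strand: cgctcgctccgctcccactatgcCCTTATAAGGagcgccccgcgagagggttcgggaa
Fhl2, chr1:43196823-43196882, minus strand: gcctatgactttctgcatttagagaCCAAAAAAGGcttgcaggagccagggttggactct
Fhl2, chr1:43163962-43164017, minus strand: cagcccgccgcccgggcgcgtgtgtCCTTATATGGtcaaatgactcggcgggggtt
Cnn2, chr10:79988519-79988578, plus strand: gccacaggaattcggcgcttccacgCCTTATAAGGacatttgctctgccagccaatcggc
Myl6, chr10:128493025-128493084, minus strand: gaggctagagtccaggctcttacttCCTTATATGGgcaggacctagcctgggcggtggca
Fhl1, chrX:56779556-56779615, plus strand: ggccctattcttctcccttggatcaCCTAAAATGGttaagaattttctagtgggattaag

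The same box sequence, CCTTATAAGG, stood 227 bases upstream of the start of Vcl and 56 bases upstream of that of Cnn2. CCTTATATGG was shared by the second starts of Fhl2, 31 bases upstream, and Myl6, 50 bases upstream. The box of Myl9 began 161 bases upstream of the start and that of the first start of Fhl1 102 bases upstream. The first start of Fhl2 had its box 96 bases upstream. The boxes of Srf began 82 and 62 bases upstream.

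**Figure D3:**
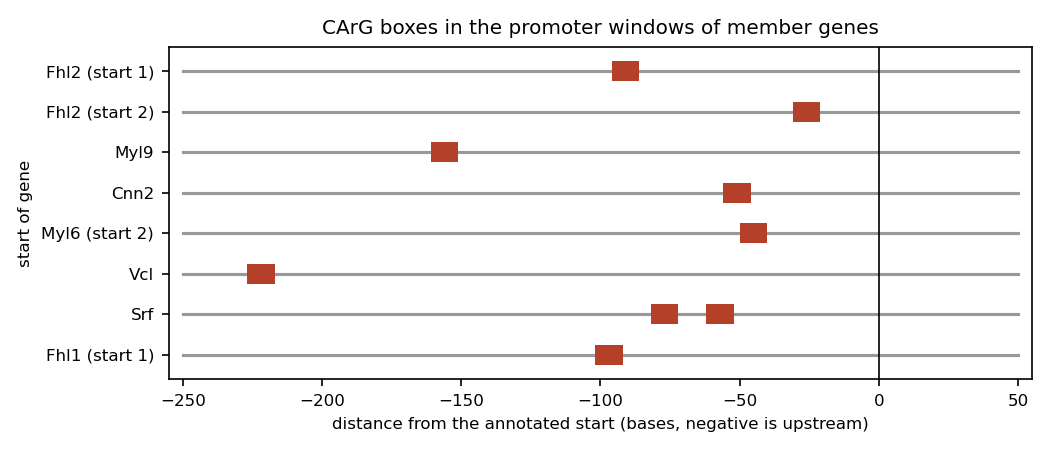
Position of each CArG box (red) in the promoter windows that hold one, in bases from the annotated start, with negative values upstream. All 9 boxes lie upstream of the start, from 227 to 31 bases away.

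Of SRF and its coactivators, 3 of 4 were read above the floor, and none of these 3 was 2-fold apart. Srf gave 252 in p27delta51 against 321 in WT, 1.27-fold lower, and its second probe set gave 136 in p27delta51 against 207 in WT. Mkl1, which encodes MRTF-A, gave 299 in p27delta51 against 471.5 in WT, 1.58-fold lower. Mkl2, which encodes MRTF-B, gave 394 in p27delta51 against 396 in WT, 1.01-fold lower on its brightest probe set. Srf and Mkl1 were thus lower in p27delta51, at log2 differences of -0.35 and -0.66. The lower quartile of all genes above the floor on both arrays was -0.30, so a difference like that of Srf was common. Mkl2 was level on its brightest probe set, and its log2 difference ranged from -0.13 to 0.10 over the processing settings. Myocd, whose product is the coactivator of cardiac and smooth muscle, gave 4.3 in p27delta51 against 10.6 in WT, both under the floor, so no fold can be given.

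Among the calponin family and the other thin filament genes, 5 of 9 were at least 2-fold lower in p27delta51, against 5.71% of all named genes. In this group 0 were at least 2-fold higher, against 6.85%, and the median log2 difference was -1.15. Cnn1, which encodes the calponin of differentiated smooth muscle, gave 35.1 in p27delta51 against 1158 in WT, 33.0-fold lower. The p27delta51 signal lies within 3 times the floor, so this fold is approximate. Tagln, which encodes transgelin (SM22-alpha), an actin-binding protein and early marker of smooth muscle, gave 865 in p27delta51 against 5146 in WT, 5.95-fold lower. Lmod1, the leiomodin 1 gene, whose product nucleates actin filaments in smooth muscle, gave 29.2 in p27delta51 against 370 in WT, 12.7-fold lower and again near the floor. These 3 genes were bright in WT cells, and Tagln alone of them stayed far above the floor in p27delta51 cells.

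Synpo2, which encodes the actin-bundling protein myopodin, gave 10.7 in p27delta51 against 57.5 in WT, at least 3.89-fold lower, and 2 of its 3 other probe sets also read above the floor in WT alone. Smtn, the smoothelin gene, named for its place in contractile smooth muscle cells, gave 321 in p27delta51 against 714 in WT, 2.22-fold lower. The broadly expressed relatives of Tagln and Cnn1 differed less. Tagln2 gave 1612 in p27delta51 against 2126 in WT, 1.32-fold lower, and Cnn2 gave 4205 in p27delta51 against 5916 in WT, 1.41-fold lower. Cnn3 was level on its brightest probe set, with 5978 in p27delta51 against 5930 in WT, while its other 5 probe sets were all lower in p27delta51, down to a log2 difference of -1.41. The authors' deposited table gives that lowest probe set a log2 ratio of -0.2 with no change, and calls 1 of the 6 decreased, so a fall of Cnn3 is not settled. Cald1, which encodes caldesmon, a brake on actomyosin, gave 4509 in p27delta51 against 7391 in WT, 1.64-fold lower, and 2 further bright probe sets had log2 differences of -1.44 and -1.64.

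Of the 6 myosin genes, 1 was at least 2-fold lower in p27delta51, against 5.71% of all named genes, and 0 were at least 2-fold higher, against 6.85%. A count of 1 in so few genes is no result about the group. The light chain and the kinase that phosphorylates it lay on opposite sides. Myl9, which encodes the regulatory light chain of smooth muscle and non-muscle myosin II, gave 817 in p27delta51 against 6019 in WT, 7.37-fold lower. Mylk, the gene of myosin light chain kinase, gave 319 in p27delta51 against 172 in WT, 1.85-fold higher. Its 2 other probe sets gave 189 and 24.9 in p27delta51, against 82.2 and 8.3 in WT, so all 3 were brighter in p27delta51. Mylk had the largest positive difference of the 41 genes, and the authors' deposited table calls its brightest probe set increased, at a log2 ratio of 0.9.

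The non-muscle heavy chain genes also parted. Myh9, for myosin IIA, gave 2704 in p27delta51 against 4006.5 in WT, 1.48-fold lower, and all 5 of its probe sets were lower, with log2 differences from -1.88 to -0.25. Myh10, for myosin IIB, gave 3458 in p27delta51 against 2494 in WT, 1.39-fold higher, and was called increased in the authors' deposited table. Myh11, the smooth muscle heavy chain, gave 3.0 in p27delta51 against 27.2 in WT, at least 1.84-fold lower, with the p27delta51 signal under the floor and the WT signal near it. Myl6, the essential light chain, gave 242 in p27delta51 against 439 in WT, 1.82-fold lower. Brighter probe sets of Myl6, left out because they also match Gm8894 and Gm5526, had smaller log2 differences of -0.27 and -0.16.

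None of the 4 tropomyosin genes, whose products wrap along actin filaments and gate access of myosin, was 2-fold apart on its brightest probe set. Tpm1 gave 3383 in p27delta51 against 6531 in WT, 1.93-fold lower, and a dimmer probe set gave 134 in p27delta51 against 620.5 in WT. Tpm4 gave 4208 in p27delta51 against 5248 in WT, 1.25-fold lower. Tpm2 gave 5262 in p27delta51 against 4643 in WT, and Tpm3 gave 3440.5 in p27delta51 against 3299 in WT, 1.13-fold and 1.04-fold higher. Tpm1 had the most negative difference of the tropomyosins, and Tpm2 and Tpm3 each had probe sets on both sides of 0, while the brightest of Tpm3 turned slightly negative with median centring.

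Among genes of actin crosslinkers and the muscle intermediate filament desmin, 1 of 6 was at least 2-fold lower, against 5.71% of all named genes. Here too a count of 1 is no result about the group. Palld, which encodes palladin, a scaffold of stress fibre dense bodies, gave 950 in p27delta51 against 3871 in WT, 4.08-fold lower, and all 4 of its probe sets were lower. The alpha-actinin genes were both lower by nearly the same size, Actn1 with 2355 in p27delta51 against 4228 in WT (1.80-fold) and Actn4 with 1363 in p27delta51 against 2651 in WT (1.95-fold). Flna, which encodes filamin A, gave 3116 in p27delta51 against 4342 in WT, 1.39-fold lower. The muscle filamin gene Flnc gave 443 in p27delta51 against 255 in WT on its brightest probe set, but 239 in p27delta51 against 244 in WT on the other. The authors' deposited table gives the brightest Flnc probe set a log2 ratio of -0.2 with no change, so the sources do not give Flnc 1 direction. Des, the desmin gene, gave 36.8 in p27delta51 against 27.6 in WT, both within 3 times the floor.

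Of the 6 genes of the focal adhesion plaque, 2 were at least 2-fold lower in p27delta51, against 5.71% of all named genes. At least 2-fold higher were 0, against 6.85%. Pgm5, which encodes aciculin, a relative of phosphoglucomutase found at adherens junctions and adhesions of muscle, gave 1.0 in p27delta51 against 548.5 in WT, at least 37.1-fold lower, the largest difference of the 41 genes at this floor. Vcl, which encodes vinculin, the link between talin and actin, gave 2098 in p27delta51 against 6022.5 in WT, 2.87-fold lower, and its second probe set gave 244 in p27delta51 against 1063 in WT. Zyx, for the stress fibre repair protein zyxin, lay just inside the 2-fold limit with 2104 in p27delta51 against 4147 in WT, 1.97-fold lower. Tgfb1i1, for the paxillin relative Hic-5, gave 782 in p27delta51 against 1496 in WT, 1.91-fold lower. The genes of paxillin and talin were less apart. Pxn gave 798.5 in p27delta51 against 1031 in WT, 1.29-fold lower, but its 2 other probe sets were nearly level, at log2 differences of -0.01 and -0.09, and the authors' deposited table calls all 3 unchanged. Tln1 gave 1172 in p27delta51 against 1382 in WT, 1.18-fold lower.

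LIM domain adaptors bind actin filaments, alpha-actinin or other adhesion proteins. Of their 6 genes, 3 were at least 2-fold lower in p27delta51, against 5.71% of all named genes. Fhl2, known as a target of SRF, gave 450 in p27delta51 against 1394 in WT, 3.10-fold lower. Pdlim5 gave 481 in p27delta51 against 1389 in WT, 2.89-fold lower, and all 7 of its probe sets were lower, with log2 differences from -2.25 to -1.53. Csrp1, which encodes a cysteine-rich protein of smooth muscle, stood at the limit with 1004 in p27delta51 against 2008 in WT, and its second probe set gave 649 in p27delta51 against 1588 in WT. Fhl1 gave 2340 in p27delta51 against 4098 in WT, 1.75-fold lower, and Pdlim7 gave 1016 in p27delta51 against 1449 in WT, 1.43-fold lower. Csrp2, the paralog of Csrp1, went the other way with 3327 in p27delta51 against 2378 in WT, 1.40-fold higher, and was called increased in the authors' deposited table. Mylk, Myh10, Csrp2 and Flnc were singled out after their values were seen.

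The probe sets of a gene are the closest to a repeat measurement in these data, and a technical one. Among the 20 members with at least 2 probe sets above the floor on both arrays, 16 had all of them on the same side and 4 (Cnn3, Flnc, Tpm2 and Tpm3) on both. The median SD between probe sets of a gene was 0.26 on the log2 scale for these members and 0.23 for the 5396 such genes of the whole array. This is the spread of a technical measurement and says nothing of the spread between cultures. Among the 12 members at least 2-fold lower, Tagln, Cnn1, Smtn, Lmod1, Myl9, Pgm5 and Fhl2 rested on 1 probe set each.

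**Figure D4:**
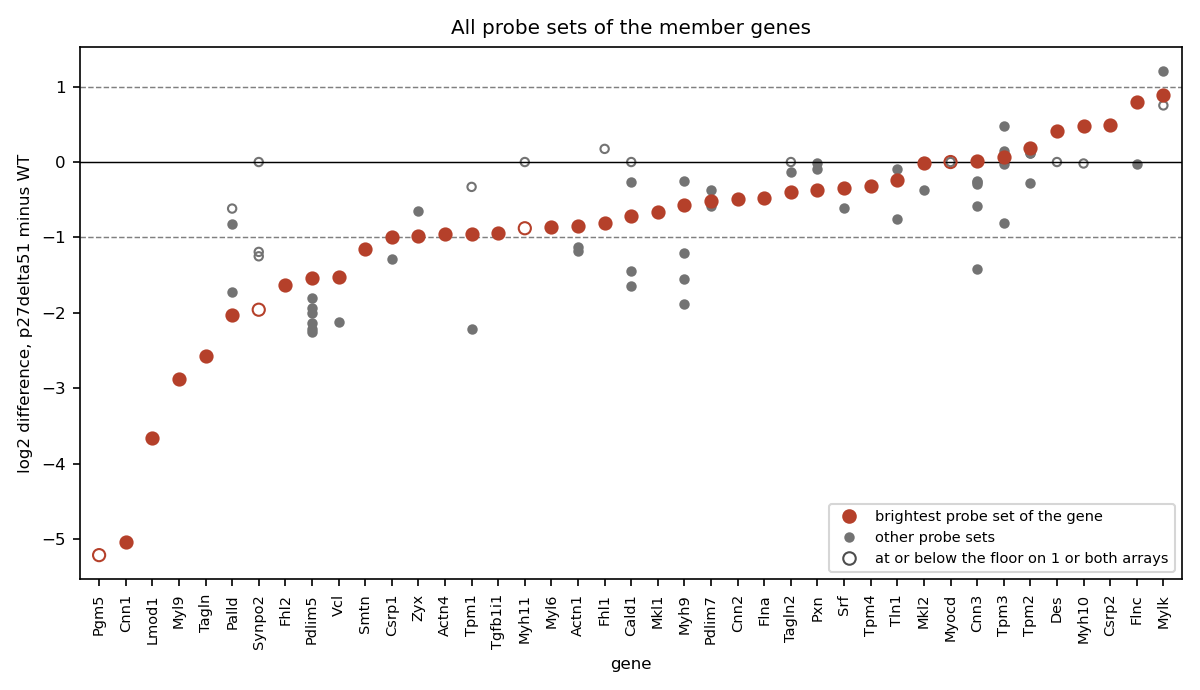
Log2 difference of p27delta51 minus WT for every probe set of the 41 genes, ordered by the brightest probe set (red), with the other probe sets in grey and open circles where a signal is at or below the floor on 1 or both arrays. Dashed lines mark 2-fold. Pgm5, Cnn1 and Lmod1 lie lowest, and the probe sets of Mylk lie above 0.

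Of the 6 actin isoform genes, read beside the members, 2 were lower by 2-fold or more in p27delta51, against 5.71% of all named genes. Higher by as much were 0, against 6.85%, and the median log2 difference was -0.77. Actg2, the enteric smooth muscle actin gene, gave 50.8 in p27delta51 against 1714 in WT, 33.7-fold lower, and Acta1, the skeletal form, gave 47.9 in p27delta51 against 226 in WT, 4.71-fold lower. Acta2, the vascular smooth muscle actin gene and a usual myofibroblast marker, stayed bright with 5778 in p27delta51 against 8765 in WT, 1.52-fold lower. The cytoplasmic actin genes Actb and Actg1 gave 8004 and 9748 in p27delta51, against 7270 and 9066 in WT, and these small differences turned negative with quantile normalization. Further genes of focal adhesions had a median of -0.71, with 17 of 21 lower by any amount, against 44% of genes above the floor on both arrays, 4 of them at least 2-fold, and 0 at least 2-fold higher. The most negative differences were those of Lims2, a PINCH adaptor of the integrin-linked kinase complex, with 30.7 in p27delta51 against 530.0 in WT, and Ldb3, a muscle PDZ-LIM gene, with 23.2 in p27delta51 against 81.2 in WT. Tns1, for tensin 1, and Itgav, for an integrin alpha chain, had the most positive, at log2 differences of 0.97 and 0.48. The other integrin chain genes of the list, Itgb1 and Itga5, were 1.99-fold and 1.74-fold lower in p27delta51.

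Of 7 other partners of SRF, 1 was at least 2-fold higher in p27delta51, against 6.85% of all named genes, and 0 were at least 2-fold lower, against 5.71%. A count of 1 in so few genes is no result about the group. The median log2 difference was 0.70, beside 0.00 for all named genes. The ternary complex factors are Ets proteins that join SRF in place of the MRTFs and lead it to growth-response genes. Elk3 gave 1191 in p27delta51 against 665 in WT, Elk4 gave 793 in p27delta51 against 487 in WT, and Elk1 gave 75.9 in p27delta51 against 44.0 in WT, which is 1.79-fold, 1.63-fold and 1.72-fold higher in p27delta51. Hopx, which encodes an inhibitor of SRF, gave 119 in p27delta51 against 27.5 in WT, 4.31-fold higher, with the WT signal near the floor. The authors' deposited table calls Elk3, Elk4 and Hopx increased and Elk1 unchanged. Scai and Gata6 were 1.28-fold and 1.06-fold higher and are called unchanged there, and Gata4 was under the floor on both arrays.

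Markers of other cell types were read because a culture of MEFs may hold several. Vascular smooth muscle and pericyte markers outside the member list were read too. Of these 8, 5 were lower by 2-fold or more in p27delta51 and 1 higher by as much, against 5.71% and 6.85% of all named genes. When each gene was read by its averaged probe sets, the number lower by as much was 3. Ramp1 stood exactly at the limit with 21.4 in p27delta51 against 42.8 in WT, both within 3 times the floor, and is called unchanged in the authors' deposited table. Summed signals are given for each list, with signals below the floor not raised. Such a sum follows the brightest probe sets of the list. Here it was 578 in p27delta51 against 1414 in WT, and 321 in p27delta51 against 837 in WT without Npnt, the brightest. Rgs5, a pericyte marker, gave 14.6 in p27delta51 against 288 in WT, and Mcam gave 74.6 in p27delta51 against 336 in WT, while Cspg4, which encodes NG2, gave 165 in p27delta51 against 45.7 in WT. Kcnmb1, a channel subunit of smooth muscle, was under the floor on both arrays. The part of these markers in the differences of the members was not tested. Fibroblast markers had a median of 0.03 and a summed signal of 57875 in p27delta51 against 51437 in WT, with 1 of 10 at least 2-fold lower, Thy1 at 18.6 in p27delta51 against 279 in WT, and 1 at least 2-fold higher, Pdgfra at 529 in p27delta51 against 138 in WT. Pdgfrb was 1.80-fold lower and Col3a1 1.83-fold higher.

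Skeletal muscle markers summed to 146 in p27delta51 against 114 in WT, with 7 of 12 under the floor on both arrays. Cardiac markers summed to 70.1 in p27delta51 against 159 in WT, with 4 of 9 under it. Above the floor on both arrays were 2 of the 12 skeletal and 1 of the 9 cardiac markers, so these sums are no measure of cell content. Among the markers of both lists, Chrna1 was 2.56-fold lower, Nppa 2.68-fold lower, Nppb no less than 2.05-fold lower and Tnnt3 at least 2.41-fold higher in p27delta51. Endothelial markers summed to 40.2 in p27delta51 against 64.5 in WT, but 0 of the 6 were above the floor on both arrays. This sum is no measure of cell content either. Pecam1 gave 2.4 in p27delta51 against 2.7 in WT, and none of the 6 was past the 2-fold limit. Macrophage markers summed to 208 in p27delta51 against 168 in WT, with 1 of 7 at least 2-fold higher. Epithelial markers summed to 141 in p27delta51 against 282 in WT, with 1 of 8 past the 2-fold limit on each side. Of all named genes, 5.71% were lower and 6.85% higher by as much, so single genes are no result about such short lists. Krt19, a keratin gene, gave 13.7 in p27delta51 against 177 in WT, and the other 7 epithelial markers summed to 128 in p27delta51 against 105 in WT.

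**Figure D5:**
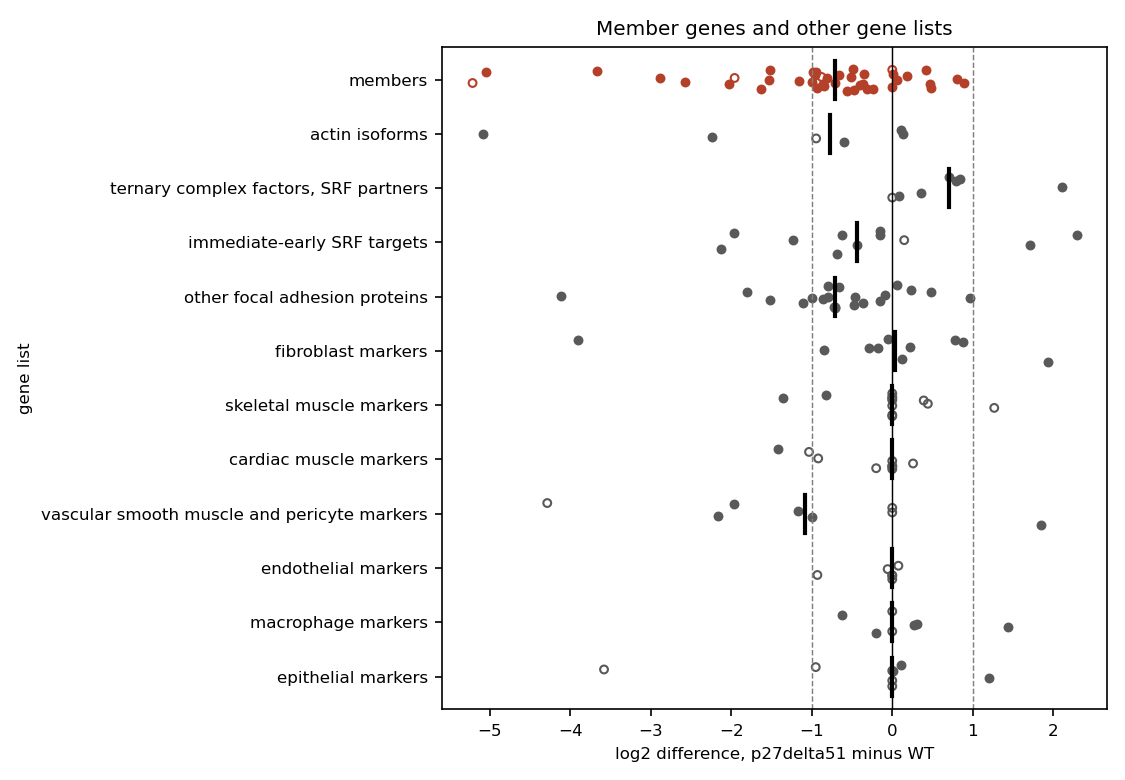
Log2 difference of p27delta51 minus WT for each gene of the member list (red) and of the other lists (grey), with a black bar at each list's median, open circles where a signal is at or below the floor on 1 or both arrays, and dashed lines at 2-fold. The medians of the members and of the actin isoforms lie at -0.71 and -0.77, and that of the ternary complex factors and other SRF partners at 0.70.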

How the data were processed

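Biotin-labelled RNA of serum-starved MEFs was hybridised to 1 array per genotype, per the labels' protocols. The deposited value table holds linear intensity values for 45101 probe sets. Per the submitters' processing notes RMA and affy were used, with no version, yet the values are linear, include zeros and have the same trimmed mean of 150.0 on both arrays after 2% was removed at each end, and their program was not given in the sources used here. Arrays hold no read counts, and their number limits the precision. Per the file headers, the deposited ratio table holds the authors' log2 ratio, their call of change and its p-value between the 2 arrays. Across probe sets, which are no replicates, its log2 ratio and the one computed here without the floor had a Pearson r of 0.943. In that table a p-value near 0 stands for an increase and one near 1 for a decrease, and no p-value is printed here.

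Gene names came from the platform annotation and were brought up to date with the GRCm38.p6 gene table, which lists Mkl1 and Mkl2 as Mrtfa and Mrtfb. Of the probe sets, 34945 carried 1 gene symbol, 932 several, 9160 none, and 64 were controls, which were left out. The brightest probe set by mean signal over both arrays stood for each of 18193 genes. No filter on low signals was applied, so every member was counted. With filters, 39 of 41 members passed at the median and 37 at the upper quartile of all probe sets. The number of unused columns was 0. The members and lists were chosen with earlier results of these data known. Named genes were all members, Srf and its coactivators first, and up to 2 genes of each other list in each direction. Outside that rule, Acta2, Itgb1, Itga5, Elk1, Elk4, Scai, Gata4, Gata6, Col1a1, Vim, Ramp1, Npnt, Kcnmb1 and Pecam1 were chosen after their values were seen. Some genes of the other lists and 1 whole list are not reported here. The steps were tested on simulated data and run in Python 3.11.15 with numpy 2.4.6, pandas 2.3.3 and statsmodels 0.14.6.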

Additional observations from a re-analysis of the deposited data

Results flagged for a closer look

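Both results come from probe sets that the comparison of the 41 genes does not use. All 18 spike-in controls of the hybridisation were brighter in p27delta51 than in WT, at a median log2 difference of 0.38. What this means for the differences of the 41 genes was not tested. Myl6 has 2 further probe sets that also match Gm8894 and Gm5526 and were left out for that reason. They gave 4805 and 5358 in p27delta51, against 5804 and 5967 in WT, log2 differences of -0.27 and -0.16, beside -0.86 for the probe set of Myl6 alone.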

How the results depend on the processing

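The count of members at least 2-fold lower in p27delta51 was 12, and it lay between 8 and 16 under the other settings run (2 brightness filters, each array's own floor, no floor, log2 of the signal plus 32, median centring, quantile normalization, loess, the mean of all probe sets, the probe set with the highest mean log2 signal, the authors' deposited table and a 3-fold limit). The exception was the 1.5-fold limit, which gave 22 lower and 2 higher by its construction, and apart from it 0 members were at least 2-fold higher. The 8 is the count at the 3-fold limit, which is stricter by construction. At 2-fold, log2 of the signal plus 32 gave 11 members lower, against 3.86% of all named genes. No floor gave 14, against 14.2%, and median centring gave 16, against 6.31%. The median log2 difference ranged from -0.83 with quantile normalization to -0.66 with the mean of all probe sets. Counting only genes above the floor on both arrays was chosen after seeing the data. Of the 41 genes, 31 were lower in p27delta51 under every setting that gave them a value, and 5 (Mylk, Myh10, Tpm2, Des and Csrp2) were higher. Mkl2, Myocd, Cnn3, Tpm3 and Flnc were at 0 or changed sign under at least 1 setting. The brightness filters leave the value of a gene as it is, and all settings use the same 2 arrays, so these signs are no repeat measurement. Without a floor the log2 difference of Pgm5 was -9.10 and that of Myh11 -3.18. No replicate could be left out and no paired analysis was possible because each genotype has 1 array. Signal over background limits Myocd, Myh11, Synpo2, Des and the p27delta51 values of Cnn1, Lmod1 and Pgm5.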

Other observations

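Immediate-early genes, which SRF with the ternary complex factors is known to switch on within minutes of a growth signal, were found on both sides. Of 11 measured genes, 3 were at least 2-fold lower in p27delta51, against 5.71% of all named genes. Another 2 were at least 2-fold higher, against 6.85%, and the median log2 difference was -0.43. Fos, an AP-1 subunit gene, gave 153 in p27delta51 against 669 in WT, 4.37-fold lower, and Dusp1, a MAP kinase phosphatase gene, gave 420 in p27delta51 against 1645 in WT, 3.92-fold lower. Fosl1, which encodes the AP-1 subunit FRA1, gave 135 in p27delta51 against 27.6 in WT, 4.89-fold higher with the WT signal near the floor, and Egr3 gave 183 in p27delta51 against 56.1 in WT, 3.26-fold higher.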
